A study of Mus musculus with 6 samples.

Results

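The genes described here are the molecular chaperones and the protein folding genes of the endoplasmic reticulum (ER) in cytokine-stimulated mouse peritoneal macrophages. They were taken by gene symbol: the Dnaj, Hsp and Pdia families, Manf, Calr, Canx, the Sel1l and Edem genes, Xbp1, Atf4, Atf6, Ern1 and Ddit3. The deposited table lists transcripts, and 149 of its 33539 transcripts carry such a symbol, 65 symbols in all. The whole table holds 16358 gene identifiers, some of them without a symbol. The ER members were 32 transcripts of 18 folding genes and 14 transcripts of 7 genes of ER-associated degradation (ERAD) and of the unfolded protein response. The cytosolic members were 44 transcripts of 14 genes with an Hsp symbol and 49 transcripts of 20 J-domain genes, some of them nuclear. The 14 are called heat shock protein genes below by symbol, though some, such as the exchange factor Hspbp1, are not. The rest were 8 transcripts of 4 mitochondrial genes and 2 pseudogene transcripts. Hspa1a, Hspa1b, Dnajb1, Hspd1, Hspe1, Hspa9, Atf4 and Ddit3 were not analysed here.

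Macrophages were collected from the peritoneal cavity of wild-type (WT) mice and of littermates with Fbxo38 deleted in myeloid cells (conditional knockout, cKO). FBXO38 is an F-box protein, the part of a ubiquitin ligase that binds substrates. Cells of both genotypes were kept for 24 h with 20 ng/mL of IL-4/IL-13, cytokines that drive alternative activation, so no unstimulated cells were measured. There were 3 libraries per genotype, called WT 1 to 3 and cKO 1 to 3 here. The Cre driver, the ages of the animals and whether a library pools animals are not stated in the labels. In such bulk RNA, fewer cells of a type and less RNA per cell cannot be told apart.

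Proteins that enter the ER are folded by the Hsp70 protein BiP (Hspa5) with its J-domain partners, by the Hsp90 protein Grp94 (Hsp90b1), by the lectins calnexin and calreticulin, and by protein disulfide isomerases. When unfolded proteins accumulate, the sensors IRE1 (Ern1), PERK and ATF6 start the unfolded protein response, which raises these chaperones and the ERAD machinery that removes misfolded proteins. In the cytosol, Hsp70 and Hsp90 proteins work with J-domain co-chaperones and exchange factors, and many are induced through heat shock factors. Secretory and strongly activated immune cells depend on ER folding, and XBP1 is known for its role in plasma cells and in activated macrophages.

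The ER stress element is the DNA motif through which ATF6 raises ER chaperones. Its sequences are shown because they mark listed genes whose promoter holds an exact match to this motif. Only exact matches were searched, so a gene not shown cannot be read as lacking the element. Promoters from 250 bases before to 50 bases after the start were found in RefSeq (GRCm38.p6) for 49 of the 65 member genes, 61 promoters in all. The motif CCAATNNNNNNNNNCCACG, searched on both strands, occurred in 5 of 16 ER folding promoters and in 39 of all 32851 promoters, which is 0.119%. It occurred in 0 of 5 ERAD and response promoters, 0 of 12 cytosolic heat shock promoters, 0 of 25 J-domain promoters and 0 of 3 mitochondrial promoters. The 5 promoters belong to Hspa5, Calr, Canx, Pdia6 and Hsp90b1, the last with 2 copies. Capitals mark the motif, read on the strand of the gene, so that a copy on the opposite strand starts with CGTGG.
Hspa5, chr2:34772013-34772055, plus strand: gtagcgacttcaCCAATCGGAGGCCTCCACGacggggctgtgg
Calr, chr8:84847063-84847105, minus strand: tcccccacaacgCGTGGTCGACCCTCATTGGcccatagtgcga
Canx, chr11:50325788-50325830, minus strand: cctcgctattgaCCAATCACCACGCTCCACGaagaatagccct
Pdia6, chr12:17266479-17266521, plus strand: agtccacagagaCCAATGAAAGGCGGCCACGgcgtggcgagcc
Hsp90b1 first copy, chr10:86705626-86705668, minus strand: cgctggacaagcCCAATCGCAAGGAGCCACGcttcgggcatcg
Hsp90b1 second copy, chr10:86705521-86705563, minus strand: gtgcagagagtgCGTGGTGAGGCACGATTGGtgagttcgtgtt

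The shorter core TGACGTGG, bound by ATF6 and XBP1, was found in the promoter of Dnajc25 alone among the members, and in 0.676% of all promoters. A match of letters is a description and not a bound site. Xbp1 is shown by its transcript instead of its promoter, because IRE1 cuts the Xbp1 mRNA at a pair of loops and so changes its reading frame. In the listed Xbp1 transcript, Xbp1-204, the loop motifs CNGCAGN stand 26 bases apart in the coding sequence, in capitals below, at positions 524 to 568 of the GENCODE M21 transcript.
Xbp1-204: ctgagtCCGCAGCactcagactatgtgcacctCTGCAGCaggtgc
The deposited values do not report cutting at this stretch.

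Values are TPM (transcripts per 1000000 transcripts of a library), computed by the authors. The table was chosen on the difference between the genotypes, since the smallest absolute log2 fold change deposited in it is 1.0001. Its transcripts hold 2.01% to 6.57% of a library's TPM. The sequencing depth is unknown, because TPM does not keep it, and counting intervals cannot be given. WT 2 had the highest share of listed TPM, and 60.8% of all listed transcripts were above 0 in it, against 37.8% to 47.8% in the others. Xist, which is expressed in female cells, was at 3.83 TPM in WT 1, 43.8 TPM in WT 2 and 0 elsewhere. Ddx3y, on the Y chromosome, had 0.01 TPM in WT 1, 0 in WT 2 and 10.6 to 16.4 TPM in the other 4 libraries. Those 4, WT 3 and all cKO libraries, are called the libraries with Y-linked transcripts below. Sex and genotype are thus partly confounded in comparisons of all 6 libraries. The 7 listed Fbxo38 transcripts summed to 8.79, 11.8 and 12.4 TPM in WT 1 to 3 and to 6.14, 9.08 and 5.90 TPM in cKO 1 to 3, so the targeted gene's listed transcripts were present in cKO, and the genotypes overlapped through cKO 2 and WT 1. Of 10 macrophage markers, 5 were among the listed genes, and their transcripts summed to 57.3 to 81.0 TPM in WT and 231 to 315 TPM in cKO. Most of that sum was Lyz1, while Adgre1, which encodes F4/80, had 5.19, 12.7 and 10.2 TPM in WT and 1.12, 4.16 and 3.82 TPM in cKO. Transcripts of 11 of 12 mesothelial and fibroblast markers summed to 56.2, 474 and 136 TPM in WT 1 to 3 and to 17.7, 57.4 and 53.4 TPM in cKO 1 to 3. Of these, Msln was listed at 0 in WT 3 and cKO 3, and Dcn in WT 1, cKO 2 and cKO 3.

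Most members were scarce. Of the 149 transcripts, 105 (70.5%) stayed under 1 TPM in every library, against 78.7% of all listed transcripts, and 7 reached 5 TPM in any library. A total of 39 (26.2%) were above 0 in 1 library alone, against 36.0% of all listed. A transcript was tested when it had at least 1 TPM in at least 3 of the 6 libraries, which 11 members and 2050 transcripts in all passed. A member can pass this filter through its higher genotype alone. WT and cKO were compared with limma on log2(TPM + 1), with adjusted p-values over all 2050, and log2 differences below are cKO minus WT on that scale, which understates the change of low transcripts.

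None of the 11 tested members differed between the genotypes at an adjusted p under 0.05, and none of the 2050 transcripts did (0.0%). At an unadjusted p under 0.05 there were 2 members, Manf-201 and an assembled Pdia5 transcript, against 472 of all tested transcripts (23.0%). Without WT 3 or without cKO 1 this count was 0, beside 304 and 200 of all 2050. Without WT 2 or without cKO 3 it was 1, beside 306 and 258. It was 5 without cKO 2, beside 472, and 7 with library weights, beside 840. With median-ratio scaling it was 6, beside 624 of all 2050. Of those 6, Manf-201 was lower in cKO, and Manf-206, Xbp1-204, Dnajc19-204, Dnajc21-202 and Dnajc24-202 were higher. In the authors' deposited table, 0 of the 149 members and 90 of all 33539 transcripts (0.268%) had an adjusted p under 0.05. The lowest adjusted p of a member in the authors' deposited table was 0.195, for Dnajb2-208. Of the 11 tested members, 6 had lower and 5 had higher values in cKO, beside 1037 lower (50.6%) and 1013 higher of all 2050. The members' median log2 difference was −1.18, beside a median of −0.387 over all tested transcripts. That median is the value of Calr-204, and the next higher member value is 0.42, of Manf-206, so single transcripts decide it. When TPM were rescaled by median ratios, the median over all tested transcripts became 0.325 and that of the members −0.514, so the members' median minus that of all was −0.792 in the first scaling and −0.840 in the other. That gap was −0.031 without WT 3, −0.261 without cKO 1 and 0.045 over reference transcripts alone, so it depends on these choices. Of the 11, 2 had genotypes that did not overlap, Pdia5 and Dnajc14-207, against 759 of all 2050 (37.0%).

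**Figure D1:**
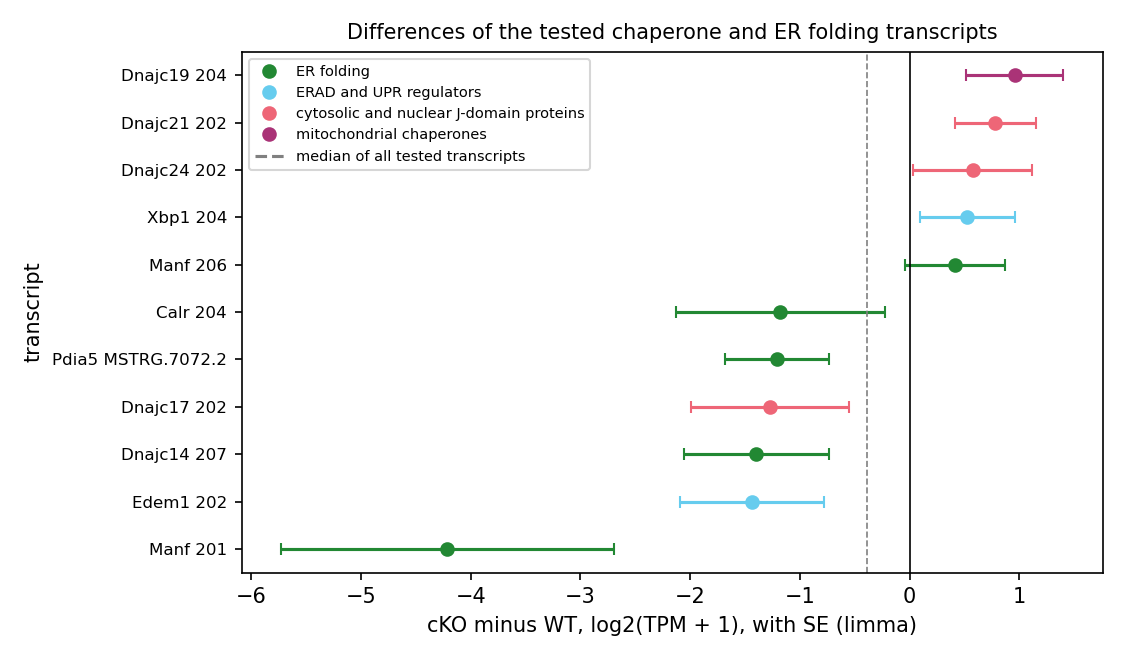
Log2 difference between cKO and WT on the log2(TPM + 1) scale (x axis) of each of the 11 tested transcripts (y axis), as point and standard error from limma, coloured by class. Manf-201 lies furthest from 0 at −4.21 with the widest error, and the dashed line marks the median of −0.387 over all 2050 tested transcripts.

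Manf encodes a secreted and ER-resident neurotrophic factor that rises under ER stress and binds BiP. Manf-201 was the most abundant member. WT 1 to 3 held 71.8, 88.8 and 61.4 TPM of it, and cKO 1 to 3 held 0, 62.8 and 0 TPM. The genotypes overlapped: cKO 2 lay within the WT range, while cKO 1 and cKO 3 were listed at 0. The difference was −4.21 ± 1.52 (SE), with an adjusted p of 0.209 by limma and an unadjusted p of 0.0246. In the authors' deposited table its log2 fold change is −1.76 with an adjusted p of 1.00. Without cKO 2 the difference was −6.21, with a limma adjusted p of 0.0161, the only member call under any alternative, so that 1 library decides this result.

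The other listed Manf transcripts did not share this pattern. Manf-206, also annotated as protein coding, had 0.46, 1.11 and 1.96 TPM in WT and 0.77, 2.15 and 2.88 TPM in cKO, with a difference of 0.42 ± 0.46 (adjusted p = 0.438, limma). It was higher in cKO on average, with overlapping genotypes, and its difference was −0.087 among the 4 libraries with Y-linked transcripts, of which WT 3 is the only WT one. Manf-204 stayed at or below 0.67 TPM in every library. The sum over the 3 transcripts was 72.3, 90.0 and 64.0 TPM in WT and 0.77, 65.0 and 3.02 TPM in cKO, with a difference of −3.28 ± 1.18 (adjusted p = 0.213, limma on gene sums).

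This pattern of exact zeros was not particular to Manf. Of the 1496 tested transcripts above 0 in every WT library, 52 (3.48%) were listed at 0 in cKO 1 and cKO 3 and above 0 in cKO 2. Among the 9 members above 0 in every WT library, 2 had this pattern, Manf-201 and Edem1-202. An exact 0 can be a failed estimate, so these zeros are reported as listed and not as absence. Of the 31-base words of Manf-201, 23.1% occur in no other GENCODE M21 transcript. The median over the 135 members with an annotated sequence was 15.0%, and 10 of them had no word of their own.

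Among the disulfide isomerases, the assembled transcript of Pdia5, whose product is known to act on ATF6 besides its clients, had 4.22, 6.63 and 3.96 TPM in WT and 0.53, 2.12 and 2.34 TPM in cKO. Every cKO library lay below every WT library. The difference was −1.21 ± 0.48 (unadjusted p = 0.0351, adjusted p = 0.209, limma), and an exact two-sided permutation test gave 0.1, the smallest p that 3 libraries against 3 allow. Pdia5-204 did not exceed 0.26 TPM. Pdia3, the isomerase that works with calnexin and calreticulin, was listed with 3 transcripts that passed no filter. Pdia3-203, annotated as a target of nonsense-mediated decay, had 0, 0 and 0.1 TPM in WT and 1.1, 0.35 and 0.75 TPM in cKO, with genotypes that did not overlap. Pdia4-202 had 1.08, 0.97 and 1.12 TPM in WT and 0, 0 and 0.98 TPM in cKO, and Pdia6-203 reached 0.37 TPM in WT and was listed at 0 in all cKO libraries.

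For the chaperones and lectins of the ER, no listed reference transcript of Hspa5, Calr, Canx or Pdia6 was annotated as protein coding. Hspa5-204, a decay target of the BiP gene, had 0.54, 4.63 and 1.95 TPM in WT and 0.27, 0 and 0 TPM in cKO. The genotypes did not overlap, but it was at 1 TPM in too few libraries to be tested. Hspa5-203, a retained intron, lay between 0 and 0.37 TPM in both genotypes. Of Hsp90b1, 2 assembled transcripts were listed, one at 0, 0.21 and 0.28 TPM in WT and 0.94, 0 and 0.89 TPM in cKO, the other between 0 and 0.74 TPM in all libraries. Their sum did not overlap, at 0.61, 0.37 and 0.28 TPM in WT and 1.40, 0.74 and 1.20 TPM in cKO, but was too low to be tested. Calr-204, a retained-intron transcript of calreticulin, had 0.93, 2.73 and 17.6 TPM in WT and 0, 5.06 and 0.9 TPM in cKO, with a difference of −1.18 ± 0.95 (adjusted p = 0.349, limma). WT 3 stood far above the other libraries, and the genotypes overlapped. Canx-204 was above 0 in WT 2 and WT 3 alone, at 0.51 and 0.19 TPM.

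The listed rows of the 5 genes with an ER stress element held values of at most 17.6 TPM. The J-domain protein Dnajc14, an ER membrane protein known for the export of receptors, had 1 tested transcript. Dnajc14-207 had 3.61, 10 and 3.97 TPM in WT and 0, 3.51 and 2.07 TPM in cKO. The genotypes did not overlap, and the gap between them, from 3.51 to 3.61 TPM, was narrow. The difference was −1.40 ± 0.66 (adjusted p = 0.209, limma), and 1.76% of its 31-base words are its own. Dnajc14-204 was also lower in every cKO library, at 0.6, 0.91 and 0.17 TPM in WT and 0.13, 0 and 0 TPM in cKO. Dnajb12-203, of a J-domain protein of the ER membrane, went the other way, with 0, 0.86 and 0.35 TPM in WT and 1.06, 1.51 and 0.94 TPM in cKO.

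**Figure D2:**
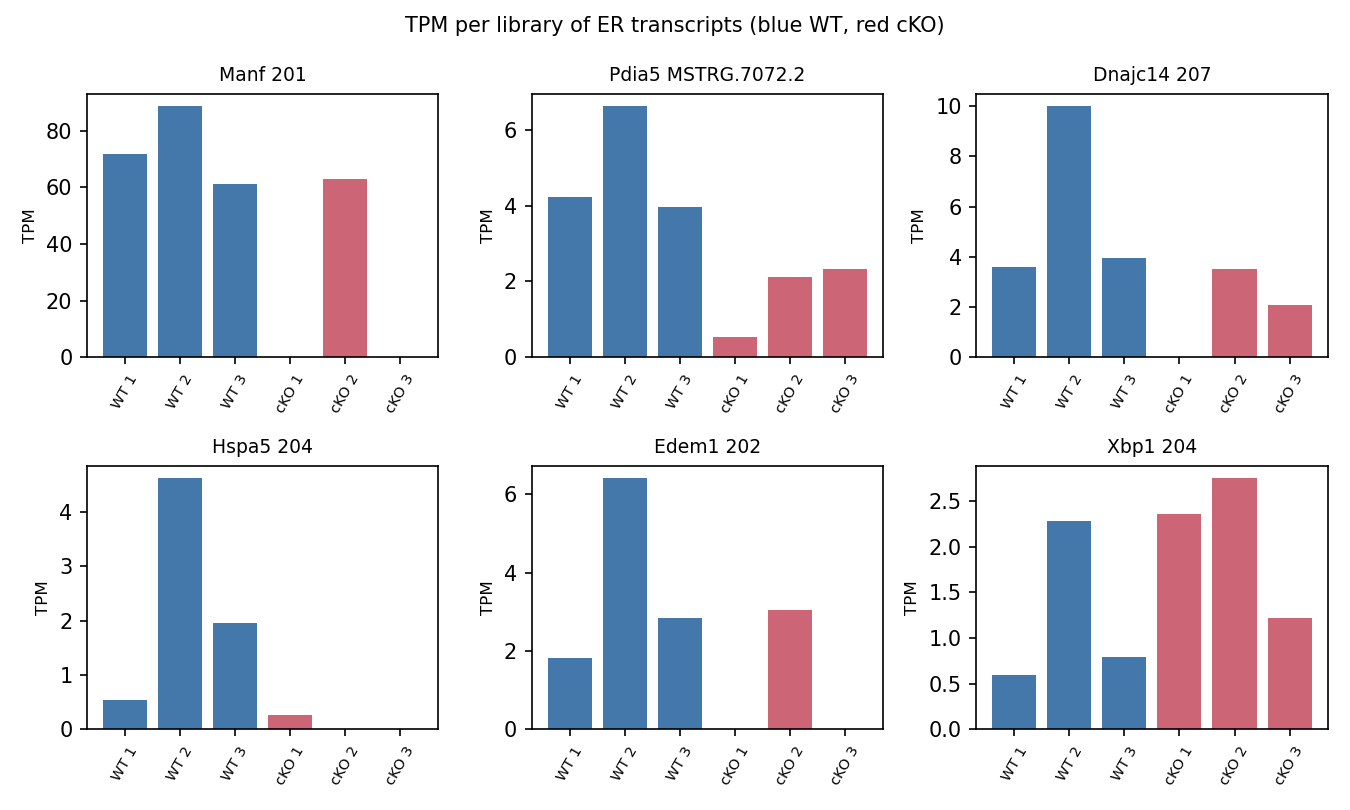
TPM (y axis, a separate linear scale from 0 in each panel) in each of the 6 libraries (x axis) of 6 ER transcripts, WT in blue and cKO in red. Manf-201 and Edem1-202 are at 0 in cKO 1 and cKO 3, Pdia5 MSTRG.7072.2 is below every WT library in all 3 cKO libraries, and WT 2 is the highest of 6 for all but Xbp1-204.

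The ERAD and response genes held 2 tested transcripts. Edem1 encodes a lectin-like factor that takes misfolded glycoproteins out of the folding cycle. Its retained-intron transcript Edem1-202 had 1.82, 6.42 and 2.84 TPM in WT and 0, 3.04 and 0 TPM in cKO, with a difference of −1.44 ± 0.65 (adjusted p = 0.209, limma) and an overlap through cKO 2. Xbp1-204 had 0.59, 2.28 and 0.79 TPM in WT and 2.36, 2.75 and 1.22 TPM in cKO. WT 2 lay among the cKO libraries, and the difference was 0.53 ± 0.44 (adjusted p = 0.355, limma). Sel1l, the adaptor of the HRD1 ubiquitin ligase, had 4 listed transcripts that stayed at or below 0.5 TPM. The 4 listed transcripts of Ern1, which encodes IRE1, stayed at or below 0.28 TPM, 3 of them in 1 library alone. Atf6 had 2 listed transcripts, the higher at 1.13 TPM in WT 2, 0.14 TPM in cKO 2 and 0 elsewhere. With 11 of 14 transcripts listed as lower in cKO (78.6%), this class had the highest such share, but 7 of the 14 were above 0 in 1 library alone.

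Of the ER transcripts as a whole, 32 of 46 were listed as lower in cKO (69.6%), beside 60.6% of all listed transcripts. ER folding transcripts summed to 88.1, 119 and 98.3 TPM in WT 1 to 3 and to 6.68, 79.4 and 15.6 TPM in cKO 1 to 3. Every cKO library lay below every WT library, with Manf-201 making up most of each WT sum. Without Manf-201 the sums were 16.3, 30.7 and 36.9 TPM in WT and 6.68, 16.6 and 15.6 TPM in cKO, and cKO 2 then lay above WT 1. The 5 tested ER folding transcripts had a median log2 difference of −1.21, 4 of them lower. It was −0.763 without cKO 1, −1.85 without cKO 2 and −0.644 with median-ratio scaling. WT 2 had the highest Dnajc14-207, Edem1-202, Hspa5-204 and Pdia5 values. Calr-204 and Pdia4-202 were highest in WT 3 instead, and Xbp1-204 in cKO 2. WT 2 also had the highest TPM over all listed transcripts and the highest sum of mesothelial and fibroblast transcripts. The part of those cells in these values was not tested.

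**Figure D3:**
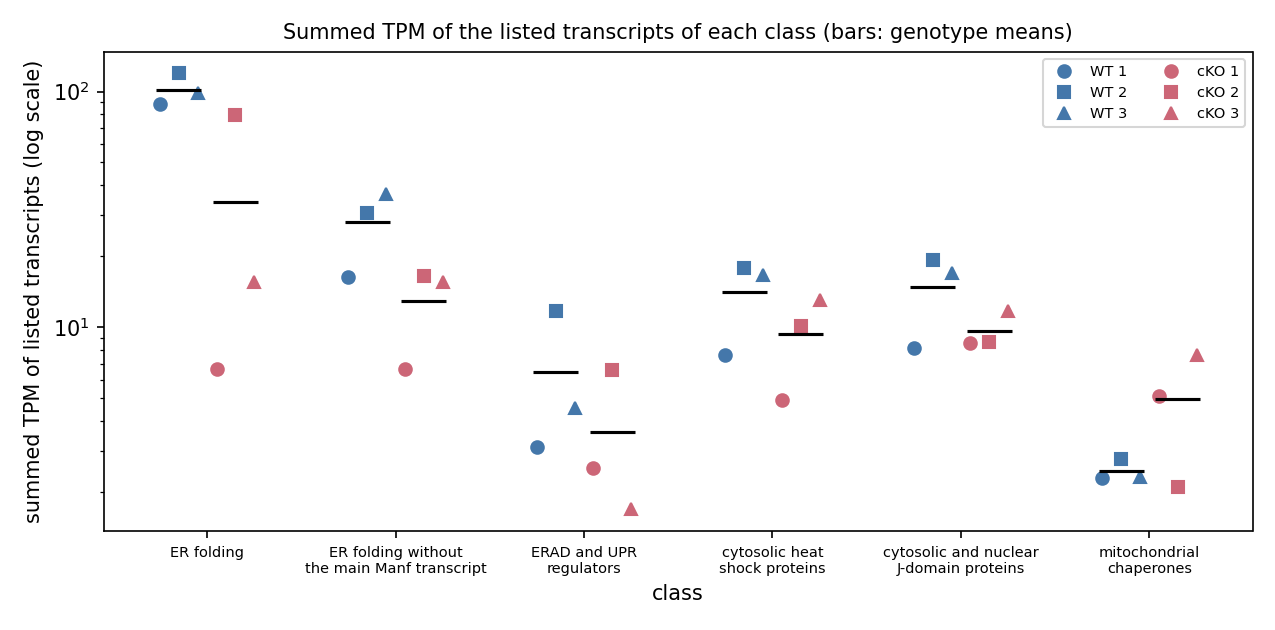
Summed TPM of the listed transcripts of each class (y axis, log scale) in each library, WT in blue and cKO in red, with short bars at the genotype means. ER folding is below all WT libraries in the 3 cKO libraries, but not once Manf-201 is left out. Mitochondrial chaperones are highest in cKO 3 and cKO 1. The label "main Manf transcript" stands for Manf-201, the highest of the listed ones, which GENCODE M21 does not mark as principal.

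No transcript of a cytosolic heat shock protein passed the filter, and 31 of 44 were listed as lower in cKO (70.5%). Hsp90ab1, the constitutive cytosolic Hsp90, had the most listed transcripts of any member gene, 10, of which 8 were listed as lower. Its retained-intron transcript Hsp90ab1-203 had 0.73, 0.66 and 1.29 TPM in WT and 0.3, 0.39 and 0.35 TPM in cKO, with every cKO library below every WT library. Hsp90ab1-208 had 0.76, 0.86 and 0.53 TPM in WT and 0, 0.31 and 0 TPM in cKO, again with no overlap. The sum over its 10 transcripts was 1.72, 4.18 and 5.62 TPM in WT and 0.6, 2.35 and 0.91 TPM in cKO, with an overlap through cKO 2 and a difference of −1.06 ± 0.49 (adjusted p = 0.231, limma on gene sums).

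Hsp90aa1, the inducible Hsp90, was carried by single libraries. Its retained-intron transcript Hsp90aa1-205 had 8.95 TPM in cKO 3 and 0 in the other 5 libraries, and Hsp90aa1-204 had 1.87 TPM in WT 3 and 0 elsewhere. Its sum differed by −0.037 ± 0.84 (adjusted p = 0.975, limma). For Hspa8, the constitutive Hsp70, Hspa8-203 had 3.06 TPM in WT 2 alone and Hspa8-209 had 3.92 TPM in cKO 2 alone. Hspa8-207 did not overlap, at 0.41, 0.36 and 1.0 TPM in WT and 0.29, 0.14 and 0 TPM in cKO. Of Hsph1, the Hsp110 exchange factor of Hsp70, 4 of 5 listed transcripts were lower in cKO, and the sum was 0.38, 1.13 and 1.48 TPM in WT and 0.14, 1.4 and 0.2 TPM in cKO. Hspbp1-202, of another exchange factor, had 1.53, 0 and 2.7 TPM in WT and 0 in all cKO libraries.

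Transcripts of the cytosolic and nuclear J-domain proteins were listed in both directions, 29 of 49 lower in cKO (59.2%). Of their 3 tested transcripts, Dnajc17-202 of a nuclear protein linked to splicing had 0, 5.54 and 3.99 TPM in WT and 0.07, 0 and 1.16 TPM in cKO, a difference of −1.27 ± 0.72 (adjusted p = 0.252, limma). Dnajc21-202, of a ribosome assembly factor, had 0, 1.0 and 0.07 TPM in WT and 1.52, 1.24 and 0.93 TPM in cKO. WT 2 lay among the cKO libraries, and the difference was 0.78 ± 0.37 (adjusted p = 0.209, limma). Dnajc24-202, of a factor of diphthamide synthesis, had the highest mean of the class, with 0.43, 3.33 and 1.33 TPM in WT and 3.22, 1.22 and 4.08 TPM in cKO and overlapping genotypes. Dnajb2, a co-chaperone that binds ubiquitylated clients, had 6 listed transcripts, 2 lower and 4 higher. Dnajb2-204 had 2.1, 2.11 and 0.91 TPM in WT and 0, 0.12 and 0.21 TPM in cKO, with no overlap, while Dnajb2-208 had 0 in WT and 0.37, 1.67 and 0 TPM in cKO. The sum over the 6 differed by −0.52 ± 0.40 (adjusted p = 0.393, limma on gene sums). Dnajc27-202 and Dnajc27-203 had the same value in each of the 6 libraries and cannot be counted as separate measurements.

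Of the mitochondrial transcripts, 5 of 8 were listed as higher. By summed mean per gene, Dnajc19 and Dnajc15 were higher in cKO, and Dnajc11 and Dnaja3 lower. Dnajc19, a part of the motor that pulls proteins into mitochondria, had 1.45, 1.0 and 0.7 TPM of Dnajc19-204 in WT and 4.11, 1.36 and 4.05 TPM in cKO. cKO 2 lay within the WT range, and the difference was 0.96 ± 0.45 (adjusted p = 0.209, limma). The summed TPM of the class was 2.29, 2.77 and 2.31 in WT and 5.12, 2.11 and 7.66 in cKO, with an overlap through cKO 2. Dnajc19 alone held 4.11, 1.36 and 6.02 TPM of the cKO sums. The pseudogenes Hspd1-ps2 and Hspd1-ps3 stayed at or below 0.52 TPM.

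Direction was also counted by kind of transcript. Of the 135 members annotated in GENCODE M21, 44 were retained introns (32.6%, against 24.3% of all annotated listed transcripts), and 19 were principal isoforms (14.1%, against 16.1%). Retained introns were listed as lower in cKO in 35 of 44 cases (79.5%), beside 68.3% of all listed retained introns. Among the members above 0 in 1 library alone, 7 had values of 0.03 to 0.35 TPM and 1 common deposited log2 fold change of 1.29. In all, 2384 listed transcripts above 0 in 1 library had that fold change, at 0.01 to 39.0 TPM. Protein-coding members were listed as lower in 31 of 54 cases (57.4%), beside 61.1% of all. Of the 39 member genes with more than 1 listed transcript, 29 had transcripts in both directions (74.4%), against 65.7% of all such genes. Of all 149 members, 17 had genotypes that did not overlap (11.4%), beside 10.5% of all listed transcripts, with both Dnajc27 transcripts in the count. The number of members above 0 was 63, 88 and 98 in WT 1 to 3 and 55, 68 and 71 in cKO 1 to 3. WT 2 and WT 3 thus had more members above 0 than any cKO library, and WT 1 had fewer than cKO 2 and cKO 3.

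**Figure D4:**
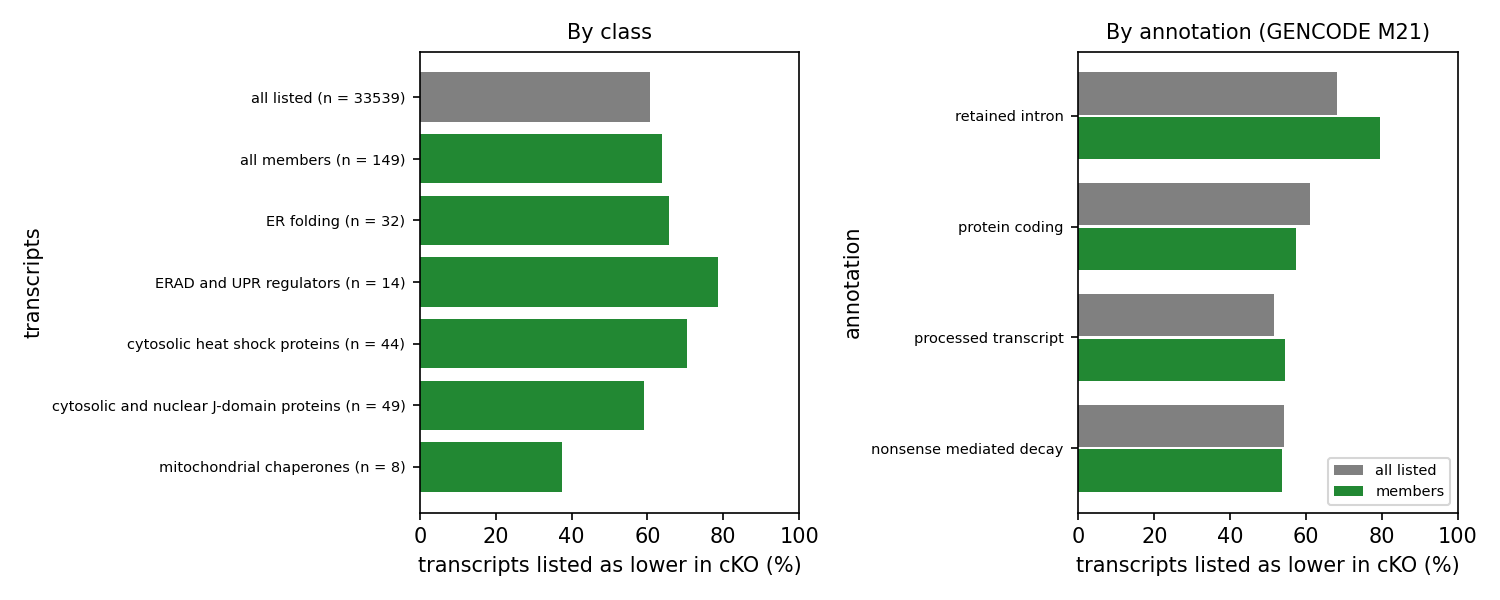
Share of listed transcripts that the authors list as lower in cKO (x axis, %), by class of member (left) and by GENCODE M21 annotation for members in green and all listed transcripts in grey (right). ERAD and response regulators (78.6%) and retained introns (79.5%) have the highest shares.

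Summing the listed transcripts of each gene gave 17 member genes with at least 1 TPM in at least 3 libraries, of 2392 in all. None was called, and neither was any of all the genes (0.0%). Unadjusted p-values under 0.05 belonged to 4 members, Manf, Pdia5, Dnajc14 and Dnajb12, against 543 of all genes (22.7%). The sums were lower in cKO for 12 and higher for 5, beside 1395 lower and 997 higher of all 2392. Their median log2 difference was −0.608, beside −0.347 for all genes. Genotypes did not overlap in 4 of the 17 member sums, beside 754 of all 2392. The Dnajb12 sum, at 0, 0.86 and 0.35 TPM in WT and 1.06, 1.51 and 1.92 TPM in cKO, was the 1 tested higher sum whose genotypes did not overlap. Its difference was 0.86 ± 0.34 (adjusted p = 0.215, limma). Dnajc7, a co-chaperone that links Hsp70 and Hsp90, had sums of 1.06, 1.20 and 1.00 TPM in WT and 0.28, 0.54 and 0.30 TPM in cKO, with no overlap and a difference of −0.61 ± 0.27 (adjusted p = 0.222, limma).

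A list of 146 further genes of protein folding and quality control held 97 listed genes with 239 transcripts, 151 of them listed as lower in cKO (63.2%, beside 60.6% of all listed). Of 23 tested transcripts from 20 genes, 9 were lower and 14 higher, with a median log2 difference of 0.52 beside −0.387 for all tested, and 0 passed the adjusted threshold by limma or in the authors' deposited table. At an unadjusted p under 0.05 there were 7 (30.4%, beside 23.0% of all tested). Genotypes did not overlap for 8 of the 23, beside 759 of all 2050 tested (37.0%). Cnpy3-202, of the co-chaperone that Grp94 needs to fold Toll-like receptors, had the smallest p, with 0.26, 0.26 and 0 TPM in WT and 2.49, 2.38 and 1.82 TPM in cKO. Its genotypes did not overlap, with a difference of 1.46 ± 0.31 (unadjusted p = 0.00173, adjusted p = 0.137, limma). Next among the higher ones were Derl2-201, a decay target of an ERAD channel gene, and an assembled transcript of Fkbp2, an ER prolyl isomerase. Their differences were 0.79 ± 0.37 and 0.89 ± 0.41 (adjusted p = 0.209 each, limma).

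Among the lower ones, Ube2j2-208, of an ERAD ubiquitin-conjugating enzyme, had 5.52, 7.02 and 3.78 TPM in WT and 1.06, 1.02 and 2.41 TPM in cKO. Cct8-202, of a subunit of the TRiC chaperonin, had 2.23, 1.0 and 2.66 TPM in WT and 0, 0.82 and 0 TPM in cKO. Fkbp10-201, of a collagen chaperone, had 7.03, 19.1 and 13.7 TPM in WT and 1.24, 5.28 and 3.88 TPM in cKO. None of these had overlapping genotypes, and their differences were −1.38 ± 0.44, −1.23 ± 0.40 and −1.70 ± 0.61 (adjusted p = 0.209 each, limma). Fkbp10 had its highest value in WT 2, as did the collagen genes Col1a1, at 3.51, 123 and 15.8 TPM in WT and 1.37, 4.80 and 3.79 TPM in cKO, and Col3a1. Whether cells other than macrophages contributed to the Fkbp10 difference was not tested.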

How the data were processed

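RNA-seq of 6 libraries, 3 WT and 3 cKO, was analysed from the deposited transcript table. Per the labels' protocols, poly(A) RNA was made into stranded libraries, and fastp (trimming), HISAT2 (alignment) and StringTie (assembly) were applied to the reads. Per the submitters' processing notes, RSEM and DESeq2 were also used, with no version named. The build and the annotation were not given in the sources used here. The authors deposited TPM per library, and also p-values, adjusted p-values, and the fold of cKO over WT as a ratio and on the log2 scale. A second deposited sheet of picked rows was not used, and 0 per-sample columns were left unmatched. Depth is unknown.

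Transcripts with at least 1 TPM in at least 3 libraries were tested with limma 3.58.1 (R 4.3.3, variance trend, genotype as the only term, two-sided, Benjamini-Hochberg at 0.05) on log2(TPM + 1). The listed TPM of each gene were also summed and tested. The code was tested on simulated data. Since the table is selected on the difference, its p-values run small. The series describes 3 pairs of littermates and does not say which libraries form a pair, so p-values measure the spread between these samples. Annotation came from GENCODE M21 by transcript identifier, promoters from RefSeq by symbol. Tables and figures used Python 3.11.15, pandas 2.3.3, scipy 1.17.1 and matplotlib 3.10.9.

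Members, classes and the list of further folding genes were chosen with earlier results of these data known. Named were, per class, the transcript with the highest mean TPM, up to 6 tested transcripts of smallest p without overlap, any called, genes with tested transcripts in both directions, and 25 set genes. For several set genes with many listed transcripts, such as Hsp90ab1, Hspa8, Sel1l and Hsph1, only some are given singly, or only a sum or range. Of the further folding genes, up to 3 per direction by smallest p were named. Other names were chosen after their values were seen. Alternatives were a replicate block, leaving out each library, the 4 libraries with Y-linked transcripts, median-ratio scaling, quantile normalization, a pseudocount of 0.1, no filter, a minimum of 5 TPM, library weights, reference transcripts only, and the authors' adjusted p-values.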

Additional observations from a re-analysis of the deposited data

How the results depend on the processing

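Among the 11 tested members, Manf-201 was called without cKO 2, and Manf-206 reversed to −0.087 among the 4 libraries with Y-linked transcripts. That fit has WT 3 as its only WT library, which is assumed to vary like the cKO libraries. Single values moved widely, such as that of Calr-204 from −0.249 without WT 3 to −3.039 in the 4 libraries with Y-linked transcripts. The number of members called was 0, and 0 to 1 over the fits that leave out 1 library each. The number of all transcripts called was 0, 0 to 4 over those fits, 7 with median-ratio scaling, 3 with quantile normalization, 3 with library weights and 90 by the authors' adjusted p-values. The number of all gene sums called was 0, 0 to 1 over those fits, 1 with median-ratio scaling, 1 with quantile normalization and 19 with library weights. No member gene sum was called under any of these.

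The members' median of −1.179 ranged from −1.289 to −0.249 with 1 library left out, nearest to 0 without WT 3 and −0.591 without cKO 1. It was −0.514 with median-ratio scaling, −0.104 over all 149 without a filter, and −0.382 without assembled transcripts, beside −0.427 for all. The ER folding median was −2.213 with a pseudocount of 0.1 and −0.166 without a filter. A minimum of 5 TPM left 1 member, so no median is given. The share of members with a lower mean in cKO was 55.0% to 67.1% under scalings and subsets chosen after seeing the data. That of all listed transcripts was 39.5% to 63.3%. The shares lay furthest apart without WT 2 (55.7% of members, 44.8% of all) and among the 4 libraries with Y-linked transcripts (55.0% and 39.5%). Elsewhere they were closer, such as 61.1% and 59.1% with median-ratio scaling.

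The replicate number as a block gave 0 calls. It gave 4 members at an unadjusted p under 0.05 in place of 2, beside 499 of all 2050 in place of 472. Deviations of same-numbered libraries correlated at 0.13, −0.14 and −0.11, and the numbers were not taken as pairs. Which libraries come from littermates is not known from this. Unknown depth, values mostly under 1 TPM and isoforms with few bases of their own limit what single transcripts can show. Transcripts that the table does not list were not analysed here.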
